A study of Mus musculus with 170 samples.

Results

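The genes described here are 10 that p53 switches on or that hold back cell division: Cdkn1a, Mdm2, Gadd45a, Gadd45b, Gadd45g, Btg2, Ccng1, Phlda3, Aen and Bbc3. They were taken by symbol from the deposited count table, where they are 10 of 21450 gene symbols, and their 21 probe rows were summed per gene. All 10 were abundant enough to be tested in lung and in heart. Female CD1 mice, an outbred stock in which animals differ genetically, received particles of biomass smoke in saline (50 µL at 2 mg/mL) by oropharyngeal aspiration, in which a drop placed at the back of the throat is breathed in. Eucalyptus, pine, pine needles, peat and red oak were the 5 fuels. Each was burned with flames and by smoldering, which gives 10 smokes called RedOakFlame, PeatFlame, PineNeedlesFlame, PineFlame and EucalyptusFlame, and RedOakSmolder, PeatSmolder, PineNeedlesSmolder, PineSmolder and EucalyptusSmolder. Other mice received lipopolysaccharide (LPS), the endotoxin of bacteria, at a dose the labels do not give, or saline alone. Whole lung was measured at 4 h and at 24 h, with 6 animals for each smoke, 4 for LPS and 6 for saline at each time. Whole heart was measured at 24 h, with 6 animals each for RedOakFlame, PeatFlame, RedOakSmolder, PeatSmolder and saline, and the lungs of these 30 animals were measured too. In whole organs, fewer cells of a type and less RNA per cell cannot be told apart.

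The transcription factor p53 is stabilised by DNA damage and other stress and then raises genes that stop the cell cycle, repair DNA or start apoptosis. It also raises Mdm2, whose product marks p53 for degradation, so that the response is self-limiting. Several of these genes are not under p53 alone: Cdkn1a, Btg2 and the Gadd45 genes also answer inflammatory and growth signals.

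To show what lies before these genes, the 250 bases upstream of an annotated start are given for 4 genes whose levels carry the results, from RefSeq on GRCm38.p6, on the gene's strand and 5′ to 3′. Cdkn1a is shown for the more upstream of its annotated starts (chr17:29090729-29090978, plus strand), with capitals at its matches to the p53 half-site. Gadd45b (chr10:80929841-80930090, plus strand) and Gadd45g (chr13:51846425-51846674, plus strand) have capitals at the TATA box letters TATAAA, and Btg2 (chr1:134079156-134079405, minus strand) at the cyclic AMP response element TGACGTCA.
Cdkn1a: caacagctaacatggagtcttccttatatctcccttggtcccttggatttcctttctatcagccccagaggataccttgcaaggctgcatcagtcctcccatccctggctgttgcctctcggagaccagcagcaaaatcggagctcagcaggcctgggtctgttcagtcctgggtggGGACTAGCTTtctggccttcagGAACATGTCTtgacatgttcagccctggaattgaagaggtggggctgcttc
Gadd45b: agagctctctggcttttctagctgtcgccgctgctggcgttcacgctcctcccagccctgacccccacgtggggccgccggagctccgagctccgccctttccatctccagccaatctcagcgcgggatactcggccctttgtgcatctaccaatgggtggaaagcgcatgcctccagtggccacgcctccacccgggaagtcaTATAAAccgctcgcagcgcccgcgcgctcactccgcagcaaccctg
Gadd45g: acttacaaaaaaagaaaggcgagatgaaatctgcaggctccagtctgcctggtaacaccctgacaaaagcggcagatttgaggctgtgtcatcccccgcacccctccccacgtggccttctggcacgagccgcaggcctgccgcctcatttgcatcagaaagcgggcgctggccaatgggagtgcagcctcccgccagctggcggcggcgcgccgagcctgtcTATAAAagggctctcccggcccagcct
Btg2: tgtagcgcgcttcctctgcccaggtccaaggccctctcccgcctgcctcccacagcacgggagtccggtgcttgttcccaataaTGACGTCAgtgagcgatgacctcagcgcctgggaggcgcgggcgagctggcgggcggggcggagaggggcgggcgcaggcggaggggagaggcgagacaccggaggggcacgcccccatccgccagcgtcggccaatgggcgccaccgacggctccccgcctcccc
All 10 genes matched the RefSeq promoter table, with 14 promoters, and each motif was searched on both strands. The p53 half-site, the unit that p53 binds as a pair, was found before 5 of the 10 genes (Cdkn1a, with 2 matches in the stretch shown, Mdm2, Gadd45a, Ccng1 and Aen), and 7.13% of all 32807 promoters held it in windows of the same length. The letters TATAAA were found before Gadd45b and Gadd45g and in 12.4% of all promoters. TGACGTCA, which contains the shorter half-site TGACGT, was found before Btg2 and in 1.55% of all promoters. An NF-kB motif was found before Bbc3 and in 3.9% of all promoters, while TGANTCA (AP-1, in 6.75% of promoters) and AGAACA (the glucocorticoid receptor half-site, in 16.1%) were found before 0 of the 10. A gene is counted here when any of its promoters held the motif, while the shares are per promoter, so the units differ. These matches describe the letters of the windows and are not sites of binding.

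The 170 libraries held 4.43 M to 8.05 M counts each, with a median of 6.59 M. In the 30 animals with both organs, scaled together, 10 markers of heart muscle summed to 43105 to 67673 CPM (counts per M, TMM-normalised) in hearts and 75.8 to 1216 CPM in lungs, and 10 of lung epithelium to 12 to 177 CPM in hearts and 21848 to 48852 CPM in lungs. In 6 lung libraries of 24 h, all from smoke-exposed animals, fewer than 13000 genes had a count, and an alternative fit left them out. Of the 24 lung groups, those of 4 h were on plate 1 and those of 24 h mostly on plate 2, apart from PineNeedlesSmolder, which was mostly on the other plate at both times. Plate was a term of the lung fit. A gene is called when the quasi-likelihood test of edgeR gives it a Benjamini-Hochberg adjusted p under 0.05 over all genes tested, and each log2 change is given ± its standard error.

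LPS raised Cdkn1a, Gadd45b and Gadd45g in lung at both times, and Gadd45a and Aen at 4 h. At 4 h, 5 of the 10 genes were called, all of them higher, where 8.98% of all 14458 genes tested were called and 5.48% were called higher. The median log2 change of the 10 was 0.79, against -0.04 over all genes tested. At 24 h, 3 of the 10 were called, again all higher, where 12.1% of all genes were called and 7.58% were called higher, and the medians were 0.34 for the 10 and -0.12 for all genes.

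Cdkn1a encodes p21, which stops the cell cycle by blocking cyclin-dependent kinases. At 4 h it stood at 47.8, 79.6, 41 and 40.1 CPM in the 4 LPS lungs, and between 8.9 and 16 CPM with a median of 12.5 CPM in the 6 saline lungs. The groups did not overlap, and the fitted log2 change was 2.04 ± 0.38 (adjusted p = 2.29e-05). At 24 h it was 49.9, 97.6, 89 and 57.5 CPM after LPS, against a lowest, median and highest level of 9.28, 26.9 and 50.3 CPM after saline. Here 3 of 4 LPS lungs lay above every saline lung, with a log2 change of 1.46 ± 0.38 (adjusted p = 0.00305). The more abundant of its probes was called alone at both times, and the other, at 1.46 CPM in saline lungs of 4 h, at neither.

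The Gadd45 proteins are small stress proteins that bind cell cycle regulators and activate a kinase upstream of p38 and JNK. Gadd45b, known as a target of NF-kB, was 674, 917, 799 and 1011 CPM at 4 h after LPS, against 191 to 435 CPM (median 322) after saline. All 4 LPS lungs were above every saline lung, with a log2 change of 1.42 ± 0.32 (adjusted p = 0.000776). At 24 h the LPS lungs had 694, 1166, 808 and 673 CPM, again all above the saline lungs at 142.8 to 366 CPM (median 264), for a log2 change of 1.71 ± 0.32 (adjusted p = 2.07e-05). Both probes of Gadd45b were called at each time when tested alone.

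Gadd45g had 268, 219, 116.98 and 87.9 CPM at 4 h after LPS, and 48.4 to 95.2 CPM (median 58.2) after saline. The lowest LPS lung lay inside the saline range, and the log2 change was 1.35 ± 0.36 (adjusted p = 0.00697). Without LPS replicate 1 it was 1.05, with an adjusted p of 0.0726 in edgeR's quasi-likelihood test. At 24 h the LPS lungs had 233, 341, 255 and 175 CPM, all above the saline lungs at 36.9 to 145.1 CPM (median 88.9), for a log2 change of 1.52 ± 0.37 (adjusted p = 0.00122).

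Gadd45a, a classic DNA damage response gene of this family, was called at 4 h. It had 117.1, 203, 126.8 and 158 CPM after LPS, all above the saline lungs at 36.9 to 100.8 CPM (median 75.2), for a log2 change of 1.04 ± 0.29 (adjusted p = 0.00759). Without LPS replicate 2 it was 0.88, with an adjusted p of 0.0661 in the same test, and none of its 3 probes was called alone (log2 changes of 0.99 to 1.19). At 24 h the groups overlapped, at 51.4 to 90.7 CPM after LPS and 31.8 to 110.5 CPM after saline, and the log2 change was 0.18 ± 0.29 (adjusted p = 0.782).

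Aen encodes a nuclease that p53 induces and that takes part in apoptosis. At 4 h it had 65.4, 43.7, 47.7 and 40.8 CPM after LPS, and 18.8 to 35.9 CPM (median 23.3) after saline, with no overlap and a log2 change of 1.03 ± 0.22 (adjusted p = 0.000353). At 24 h the levels were 31.7, 30.7, 29.8 and 26.6 CPM after LPS and 11.8 to 26.2 CPM after saline. These groups did not overlap either, but the log2 change of 0.54 ± 0.22 was not called (adjusted p = 0.107). It was called without the 6 libraries of few detected genes (0.55, adjusted p = 0.047) and with a covariate for how many genes a library detected (adjusted p = 0.0341). The other apoptosis gene, Bbc3, which encodes the BH3-only protein PUMA, had log2 changes of 0.10 ± 0.35 at 4 h and 0.07 ± 0.35 at 24 h, neither of them called.

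The remaining genes were not called after LPS at either time. Mdm2, the ubiquitin ligase of p53, had log2 changes of -0.09 ± 0.25 at 4 h and 0.50 ± 0.25 at 24 h (adjusted p = 0.899 and 0.211). Ccng1, encoding cyclin G1, a partner of the phosphatase PP2A in the control of Mdm2, had 0.07 ± 0.30 and 0.15 ± 0.30. Btg2, an antiproliferative partner of the CCR4-NOT deadenylase, had 0.24 ± 0.53 and 0.11 ± 0.53, and its 95% interval at 4 h reached from -0.80 to 1.28. Phlda3, which competes with Akt for membrane lipid, had 0.55 ± 0.33 at 4 h and -0.37 ± 0.34 at 24 h. The difference between the LPS effects at 24 h and at 4 h was called for 0 of the 10, where 0.581% of all genes were called. By edgeR, 1 of the 10 had an unadjusted p under 0.05 for that difference (Gadd45a, -0.87 ± 0.41), and DESeq2 called 0.

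**Figure D1:**
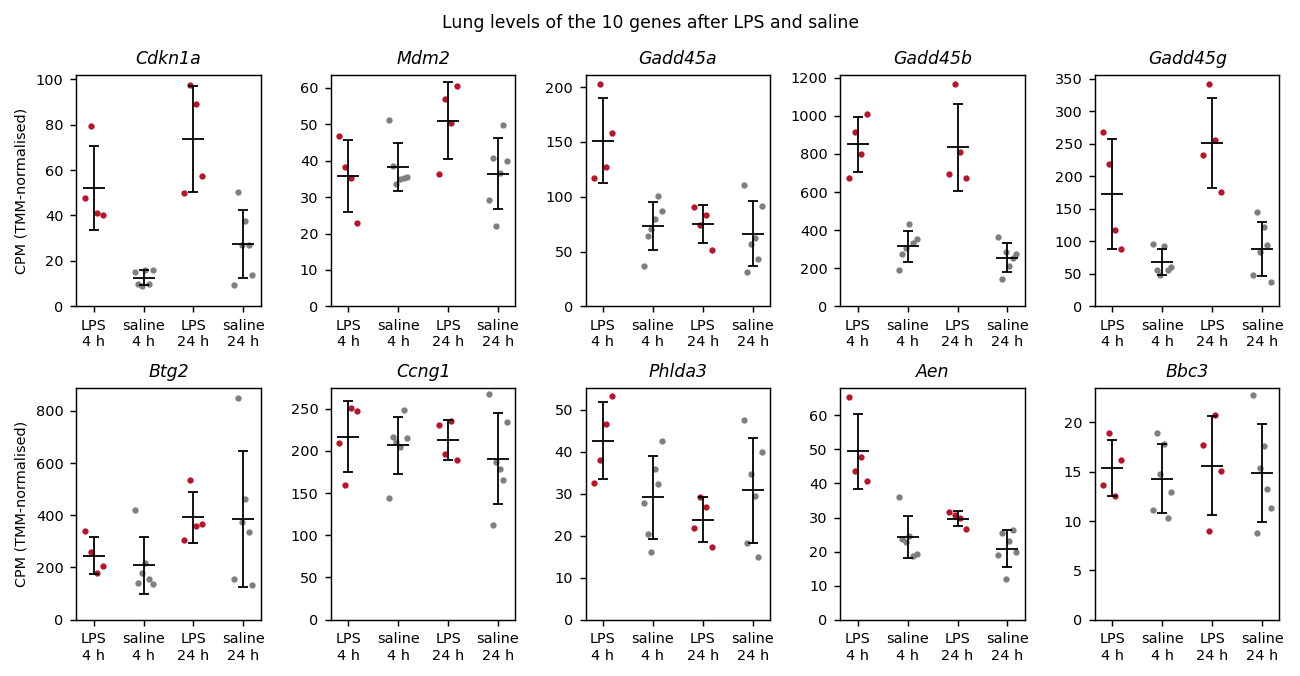
Lung levels of the 10 genes in CPM (y axis, from 0) at 4 h and 24 h, with 1 point per animal (4 after LPS and 6 after saline), the mean as a bar and the SD as whiskers. LPS and saline do not overlap for Cdkn1a, Gadd45a, Gadd45b and Aen at 4 h, nor for Gadd45b, Gadd45g and Aen at 24 h.

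Neutrophil markers moved with these changes. All 10 of 10 neutrophil markers were called higher after LPS at both times. Their summed level ran from 4216 to 12823 CPM after LPS and from 201 to 952 CPM after saline at 4 h, and from 2369.5 to 4038 CPM after LPS and from 52.2 to 218 CPM after saline at 24 h, with 0 of the markers at 0. Of 9 monocyte and macrophage markers tested, 1 was called higher at 4 h and 6 at 24 h. The sums over all 10 listed were 526 to 3678 CPM after LPS and 405 to 3074 CPM after saline at 4 h. At 24 h these sums were 984 to 1624 CPM after LPS and 432 to 1377 CPM after saline. Markers of other cell types also differed at 24 h. Epithelium markers summed to 15911 to 30259.8 CPM after LPS (median 24247) and 28779 to 54606 CPM after saline (median 42628). Lymphocyte markers summed to 543 to 1139.8 CPM after LPS and 147.1 to 414 CPM after saline, without overlap. Called genes at 24 h included Scgb3a2 of epithelium (-3.04 ± 0.41) and Nkg7 of lymphocytes (2.79 ± 0.63). The part of all these cells in the changes of the 10 genes was not tested.

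Other genes of the pathway are counted beside the shares over all genes, which were 5.48% called higher among 8.98% called at 4 h and 7.58% among 12.1% at 24 h. Of 33 further p53 targets tested, 4 were called higher and 0 lower at 4 h after LPS, with a list median of 0.12. They were Fas, the death receptor (1.94 ± 0.29, adjusted p = 1.53e-07), Pmaip1, which encodes the BH3-only protein NOXA (1.76 ± 0.35, adjusted p = 0.000106), Sertad1 (1.26 ± 0.29, adjusted p = 0.0012) and Sesn2, a sestrin that restrains mTORC1 (1.79 ± 0.62, adjusted p = 0.0492). Fas averaged 274 ± 97.6 CPM after LPS and 71.5 ± 30.4 CPM after saline (SD, n = 4 and 6). At 24 h, 4 were called higher and 3 lower, with a list median of -0.08. Bax, which permeabilises the mitochondrial membrane, averaged 181 ± 40.1 CPM after LPS and 101.3 ± 13.2 CPM after saline, for a log2 change of 0.84 ± 0.16 (adjusted p = 3.95e-05), and Fas was again higher, by 1.01 ± 0.29. Plk2, a polo-like kinase, and Ces2e, a carboxylesterase, were lower, with log2 changes of -0.65 ± 0.19 and -2.12 ± 0.62.

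Of 13 regulators of p53 tested, 0 were called higher and 1 lower at 4 h, and 0 were called at 24 h. The 1 was Mdm4, the relative of Mdm2 that inhibits p53, at 281 ± 53.4 CPM after LPS and 507 ± 120.7 CPM after saline (SD), for a log2 change of -0.85 ± 0.20 (adjusted p = 0.00159). Trp53, the p53 gene itself, was not called at either time. It averaged 154 ± 65.9 CPM after LPS and 129.8 ± 63 CPM after saline at 4 h, and 295 ± 70.6 CPM after LPS and 212 ± 120.1 CPM after saline at 24 h. Of 20 other growth arrest genes, 3 were called higher and 1 lower at each time. Btg1, a relative of Btg2, was higher by 1.34 ± 0.27 at 4 h and 1.32 ± 0.27 at 24 h, and Gas1, a membrane protein of arrested cells, had log2 changes of -1.72 ± 0.38 and -1.32 ± 0.38. The immediate early gene Egr1 and the transcription factor Klf6 were also higher at 4 h, Egr1 by 2.12 ± 0.39 and Klf6 with an adjusted p of 0.019, and Ddit3, of the integrated stress response, and Klf6 at 24 h, by 1.08 ± 0.22 and 0.87 ± 0.30. Of 20 proliferation genes, 0 were called higher and 1 lower at 4 h (Bub1, a mitotic checkpoint kinase, -1.65 ± 0.43). At 24 h, 3 were called higher and 0 lower: Pcna, the sliding clamp of replication (0.82 ± 0.22), Ccne1, cyclin E1 (1.59 ± 0.50), and Rrm2, of ribonucleotide reductase (0.98 ± 0.34).

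In the fit of all lungs, no single smoke gave a called change of any of the 10 genes in lung, but several alternative fits called some. The 10 smokes give 100 gene and smoke pairs at each time, and 0 of 100 were called at 4 h and 0 of 100 at 24 h, where 0.0456% and 0.187% of all such pairs were called. At each time 9 of the 100 had an unadjusted p under 0.05 in edgeR, which is 9% against 5.05% of all pairs at 4 h and 7.26% at 24 h. DESeq2 called 1 at each time, Aen in PeatFlame at 4 h and Mdm2 in RedOakFlame at 24 h. The RedOakFlame mean of Mdm2 at 24 h was 55.5 CPM, against 36.4 CPM in saline lungs. Without replicate 6, a library of few detected genes at 128.8 CPM, that mean was 40.9 CPM. With a covariate for how many genes a library detected, 7 were called at 4 h: Aen higher in PeatFlame, PineNeedlesFlame and EucalyptusFlame, Gadd45g higher in PeatFlame and PineNeedlesFlame, and Ccng1 lower in PeatFlame and PineNeedlesFlame (log2 changes of -0.52 and -0.44, adjusted p = 0.0327 and 0.0458). Fitted on the 4 h lungs alone, Gadd45g and Aen in PineNeedlesFlame were called (adjusted p = 0.0381 and 0.0414). The mean of the 10 smokes against saline gave 0 calls among the 10 genes at either time, where 0% of all genes were called at 4 h and 0.00692% at 24 h, and the medians of the 10 genes were 0.03 and -0.12. By edgeR 1 of the 10 (Aen, 0.38 ± 0.15) had an unadjusted p under 0.05 at 4 h and 0 at 24 h, and DESeq2 called 0 at both times. Saline lungs at 24 h against 4 h gave 0 calls, where 0% of all genes were called, with 1 of the 10 under 0.05 unadjusted in edgeR and 0 called by DESeq2. The mean smoke effect at 24 h against that at 4 h also gave 0 calls, where 0% of all genes were called, with 0 under 0.05 unadjusted in edgeR and 0 called by DESeq2.

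At 4 h, Aen was nearest to a call, in PeatFlame, PineNeedlesFlame and EucalyptusFlame, followed by Gadd45g in PineNeedlesFlame. Aen had 37 to 44 CPM with a median of 38.9 in PeatFlame lungs, and 18.8 to 35.9 CPM with a median of 23.3 in saline lungs. All 6 PeatFlame lungs were above every saline lung, and the log2 change of 0.70 ± 0.20 had an adjusted p of 0.159. It was called without the 6 libraries of few detected genes (adjusted p = 0.04), with DESeq2 (0.0123), with its size factors (0.0384) and with the covariate (0.00287). In EucalyptusFlame lungs Aen had 22.3 to 61.4 CPM with a median of 32.9, with 2 of 6 lungs above every saline lung and a log2 change of 0.61 ± 0.20 (adjusted p = 0.287, and 0.0177 with the covariate). Gadd45g had 98.2 to 154 CPM in PeatFlame lungs, also all above the saline lungs at 48.4 to 95.2 CPM, with a log2 change of 0.89 ± 0.33 (adjusted p = 0.52). In PineNeedlesFlame lungs the log2 changes were 0.97 ± 0.33 for Gadd45g (adjusted p = 0.318) and 0.64 ± 0.20 for Aen (adjusted p = 0.278), with 4 of 6 lungs above every saline lung for each gene.

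At 24 h the pairs nearest to a call were lower after smoke. Cdkn1a had 6.89 to 17.2 CPM with a median of 9.98 in PineNeedlesFlame lungs, and 9.28 to 50.3 CPM with a median of 26.9 in saline lungs. The groups overlapped, with 2 of 6 PineNeedlesFlame lungs below every saline lung and a log2 change of -1.28 ± 0.35 (adjusted p = 0.165). Gadd45g had 25.6 to 58.6 CPM in the same lungs and 36.9 to 145.1 CPM in saline lungs, with 3 of 6 below every saline lung and a log2 change of -1.06 ± 0.34 (adjusted p = 0.165). Without the 6 libraries of few detected genes, none of which is a PineNeedlesFlame or saline lung, both were called, at -1.29 and -1.08 (adjusted p = 0.0324 and 0.0343). For both genes every PineNeedlesFlame lung was above the mean of the saline lungs at 4 h and below it at 24 h, a difference between the times that was not tested. Cdkn1a in RedOakFlame lungs had a log2 change of -1.04 ± 0.35 (adjusted p = 0.106).

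**Figure D2:**
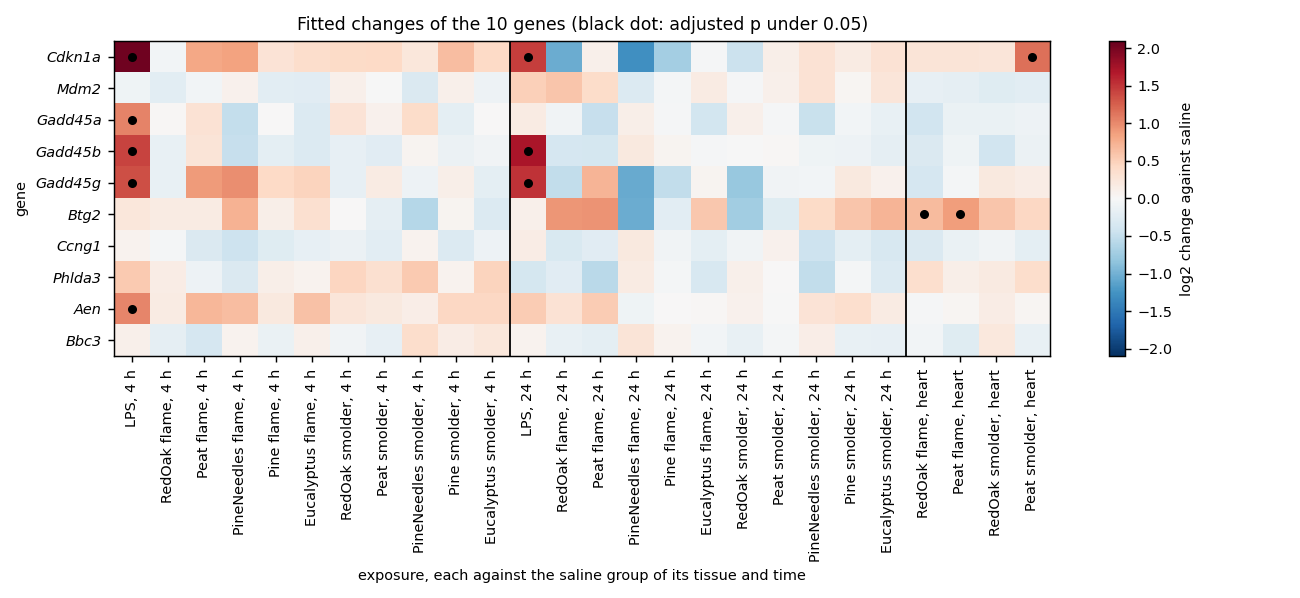
Fitted log2 change against saline of the same tissue and time (color) for the 10 genes (rows) and each exposure (columns, lung at 4 h, lung at 24 h, heart at 24 h), with a black dot for an adjusted p under 0.05. The dots fall in both LPS columns of lung and in 3 smoke columns of heart, and 0 fall in the smoke columns of lung.

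Among the other p53 targets, 1 of 33 was called in PeatFlame lungs at 4 h. Sfn, which encodes 14-3-3 sigma, a protein that holds cells before mitosis, was higher by 1.91 ± 0.41 (adjusted p = 0.00477). Of the 20 other growth arrest genes, 1 was called in RedOakFlame lungs at 4 h, Egr1 (2.28 ± 0.36, adjusted p = 9.30e-05). Over all genes and all smokes, 0.0456% of the pairs of gene and smoke were called at that time. The counts given here are those of the smoke that held the call, so this pooled share cannot be set directly beside them. The share of all genes called in PeatFlame or in RedOakFlame lungs alone is not given here.

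The phase of burning was compared over all fuels, as the mean of the 5 flaming groups minus the mean of the 5 smoldering groups. At 4 h, 1 of the 10 genes was called (Gadd45g, higher in flaming), where 2.39% of all genes were called and 1.72% were called higher. Gadd45g had a lowest, median and highest level of 29, 92.7 and 272 CPM in the 30 flaming lungs, and of 37.3, 63.2 and 121.8 CPM in the 30 smoldering lungs. The ranges overlapped, and the log2 change was 0.56 ± 0.15 (adjusted p = 0.0274). Tested alone in edgeR, probe 30550 was called (0.57 ± 0.15, adjusted p = 0.0248) and probe 64460 was not (0.54 ± 0.18, adjusted p = 0.0731). By fuel, the fitted log2 difference was 1.07 for pine needles, 0.72 for peat, 0.68 for eucalyptus, 0.29 for pine and 0.02 for red oak, and 5 of 6 PeatFlame lungs were above every PeatSmolder lung. Leaving out EucalyptusFlame replicate 3, PineFlame replicate 1, PineFlame replicate 5 or PineNeedlesFlame replicate 5 ended the call, with log2 changes of 0.51, 0.53, 0.51 and 0.49 and an adjusted p of 0.0548, 0.0561, 0.0503 and 0.0629 in edgeR's quasi-likelihood test. For pine needles the phases lie mostly on different plates, with all 6 flaming lungs of 4 h on plate 1 and 5 of 6 smoldering lungs on plate 2. Without the pine needles groups the log2 change of Gadd45g was 0.43 and not called (adjusted p = 0.331), and on plate 1 alone, also without them, it was 0.43 (adjusted p = 0.316). In the comparison over all fuels Sfn (0.63 ± 0.18, adjusted p = 0.0391) and Mcm3, of the replicative helicase (0.64 ± 0.16, adjusted p = 0.0118), were called higher, as 1 of 33 p53 targets and 1 of 20 proliferation genes.

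At 24 h, 1 of the 10 was called (Cdkn1a, lower in flaming), where 0.111% of all genes were called and 0.0761% were called lower. Cdkn1a had a lowest, median and highest level of 5.04, 15.8 and 47.8 CPM in flaming lungs, and of 12.1, 23.9 and 69.4 CPM in smoldering lungs. The ranges overlapped. Tested alone in edgeR, probe 30669 was called (-0.70 ± 0.15, adjusted p = 0.0153). Probe 66319, at 3.22 CPM in saline lungs, was not (-0.70 ± 0.28, adjusted p = 0.666). With the probes summed, the log2 change was -0.68 ± 0.16 (adjusted p = 0.0266). By fuel it was -1.58 for pine needles (5 of 6 flaming lungs were below every smoldering lung, but 5 of 6 flaming lungs lay on plate 2 and all 6 smoldering lungs on plate 1), -0.88 for pine, -0.59 for red oak, -0.33 for eucalyptus and -0.03 for peat. Without the pine needles groups the log2 change was -0.47 and not called (adjusted p = 0.312), and on plate 2 alone, also without them, it was -0.54 (adjusted p = 0.317). Without the 6 libraries of few detected genes it was -0.72 (adjusted p = 0.0106), and fitted on the 24 h lungs alone -0.67, with an adjusted p of 0.184. Without EucalyptusSmolder replicate 4, EucalyptusSmolder replicate 6, PeatSmolder replicate 1 or PineSmolder replicate 3 it was -0.61, -0.64, -0.63 and -0.64, with an adjusted p of 0.0857, 0.0577, 0.0606 and 0.0706 in edgeR's quasi-likelihood test. The animal numbers in the titles run in blocks by phase, at 4 h from 37 to 66 for flaming, 1 to 30 for smoldering and 31 to 36 for saline and likewise at 24 h. The labels do not say what the order stands for, and it and the phase cannot be told apart.

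**Figure D3:**
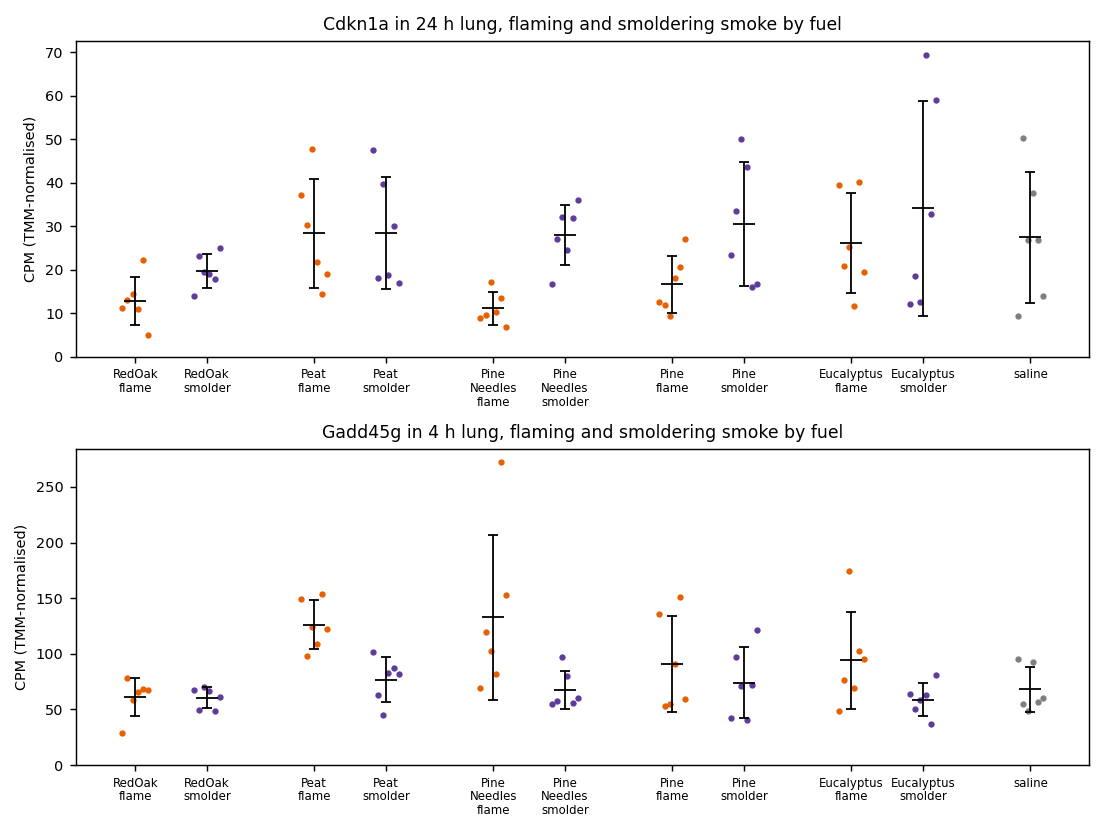
Cdkn1a in 24 h lung and Gadd45g in 4 h lung, in CPM (y axis, from 0), with 6 animals for each fuel and phase and for saline, the mean as a bar and the SD as whiskers. For Cdkn1a the pine needles groups, which lie mostly on different plates, differ at 11.1 ± 3.7 CPM flaming and 28.1 ± 6.87 CPM smoldering, and for Gadd45g the red oak groups lie together at 61.2 ± 16.9 CPM flaming and 60.5 ± 9.29 CPM smoldering.

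A test of any difference among the 10 smokes called 3 of the 10 genes at 24 h, where 18.0% of all genes were called: Cdkn1a, Gadd45g and Btg2 (adjusted p = 0.000659, 0.000751 and 0.00419). Group means of Cdkn1a ran from 11.1 CPM in PineNeedlesFlame to 34.1 CPM in EucalyptusSmolder, those of Gadd45g from 42.1 CPM in PineNeedlesFlame to 143.5 CPM in PeatFlame, and those of Btg2 from 181 CPM in PineNeedlesFlame to 742 CPM in RedOakFlame. The RedOakFlame mean of Btg2 is carried by replicate 6, at 2701 CPM, and is 349.7 CPM without it. Without the 6 libraries of few detected genes the highest mean of Btg2 was 563 CPM, in PeatFlame, and the 3 genes were called (adjusted p = 0.00683, 0.00693 and 0.024). In that mean PeatFlame replicates 1 and 2 had 993 and 953 CPM, with 13746 and 13159 detected genes. The other PeatFlame lungs in it had 185 to 357 CPM. Probe 29359 of Btg2, tested alone, was not called in the same test (adjusted p = 0.798). Fitted on the 24 h lungs alone, none of the 3 was called (adjusted p = 0.051, 0.0503 and 0.2), and with a covariate for how many genes a library detected Btg2 was not (adjusted p = 0.432). Markers of cell types called in this test are counted beside the 18.0% of all genes. They were 3 of 10 for neutrophils, 1 of 9 for monocytes and macrophages and 3 of 10 for epithelium. For endothelium they were 2 of 8, for fibroblasts 1 of 6, for lymphocytes 1 of 9 and for heart muscle 1 of 10. The lists are short, and these counts are not read as a difference in cell types. The median summed level of a smoke group ran from 130.3 CPM in PineNeedlesSmolder to 576 CPM in PineNeedlesFlame for neutrophils, and from 34356 CPM in PineNeedlesFlame to 47327 CPM in PeatFlame for epithelium. In the same test, beside the same 18.0% of all genes, 2 of 13 regulators of p53 were called, Trp73 and Trp53 (adjusted p = 0.00621 and 0.0424). Of the other p53 targets 4 of 33 were called. The part of cell types in the differences of the 3 genes was not tested. At 4 h, 0 of the 10 were called, where 0.609% of all genes were called. Gadd45g had an adjusted p of 0.088 there, 3 of the 10 had an unadjusted p under 0.05 in edgeR, and DESeq2 called 1, Gadd45g.

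The level of Btg2 went with the number of genes detected in a library. The 6 lung libraries with fewer than 13000 detected genes were RedOakFlame replicate 6, EucalyptusFlame replicate 5, PineSmolder replicate 4, EucalyptusSmolder replicate 5, PeatFlame replicate 3 and PineFlame replicate 6, with 2701, 1985, 1789, 1587, 1336 and 910.3 CPM of Btg2. The other lung libraries had 124.5 to 1002 CPM with a median of 214. In the order given, the number of detected genes is 9886, 10172, 10886, 11690, 12145 and 12545, so that Btg2 is the lower the more genes were detected. The saline lungs of 24 h, none of which is among the 6, also spread widely in Btg2, from 132.7 to 851 CPM. The highest, replicate 2, had the fewest detected genes of them, 13196. Replicates 4, 3 and 5, at 462, 375 and 337 CPM, had 14657, 15297 and 14703 detected genes. Replicates 1 and 6, at 155 and 132.7 CPM, had 15400 and 15136.

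The probes of Btg2 went opposite ways in these libraries. The probe numbered 65256 in the table had 880.4 to 2696 CPM in the 6 libraries and a median of 163 CPM in the other lung libraries, while probe 29359 had 5.04 to 42.4 CPM in the 6 and a median of 51.6 CPM in the others. The probes of Gadd45a and Aen parted in the same way. Probe 31917 of Gadd45a had 17.2 to 47.3 CPM in the 6 and a median of 9.14 CPM in the others, and probe 72346 had 0 to 18.7 CPM in the 6 and a median of 47.8 CPM in the others. Probe 31672 of Aen had 20.2 to 58.9 CPM in the 6 and a median of 17.2 CPM in the others, and probe 72984 was at 0 in all 6 and at a median of 3.3 CPM in the others.

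Other genes were low in these libraries. Bbc3, at 0 to 6.57 CPM, was below every other lung library in 6 of 6, and Gadd45b, at 9.36 to 149.5 CPM in the 6 and 116.8 to 1166 CPM in the others, in 5 of 6. Phlda3 was below all others in 4 of the 6 and Ccng1 in 3, while Mdm2, at 49.5 to 128.8 CPM, was above all others in 3. The 6 libraries were set apart for few detected genes, so genes at or near 0 in them are part of that choice. How many of all genes lay outside the other lungs was not counted. What sets these libraries apart was not tested.

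**Figure D4:**
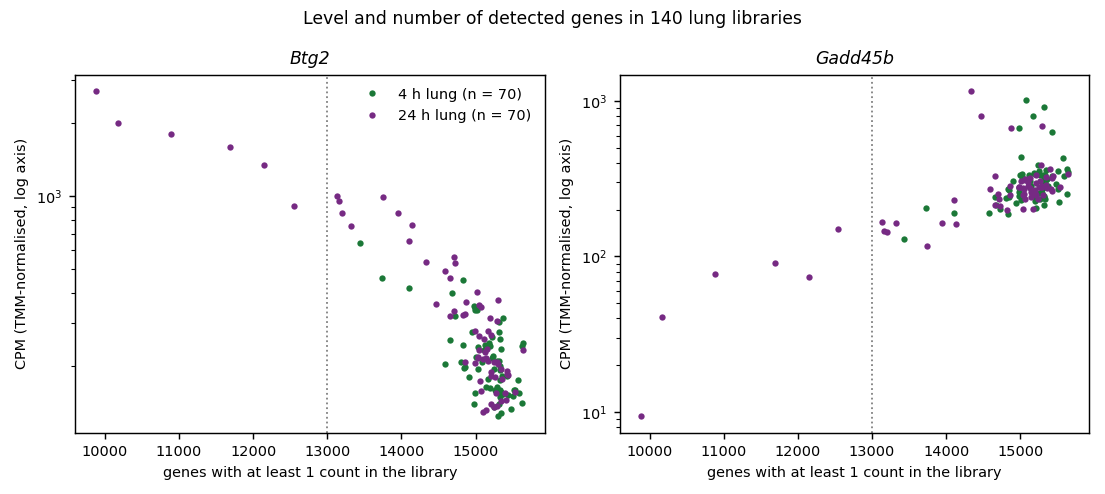
Level of Btg2 and of Gadd45b in CPM (y axis, log scale) against the number of genes with at least 1 count (x axis), with 1 point per lung library of 4 h or 24 h and a dotted line at 13000 genes. The 6 libraries left of the line carry Btg2 at 910.3 CPM or more and Gadd45b at 149.5 CPM or less.

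In heart at 24 h, smoke groups had called changes of Btg2 and Cdkn1a. Btg2 was called higher in RedOakFlame (1 of 10 genes, where 5.33% of all 11179 genes were called higher) and in PeatFlame (1 of 10, where 0.0358% were). Cdkn1a was called higher in PeatSmolder (1 of 10, where 2.39% were). In RedOakSmolder 0 of 10 were called, where 0% of all genes were called, and 1 of the 10 (Btg2) had an unadjusted p under 0.05 in edgeR. DESeq2 called the same 3 gene and smoke pairs of 40 and none in RedOakSmolder.

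Btg2 had a lowest, median and highest level of 39.8, 51.6 and 62.6 CPM in PeatFlame hearts and 30, 45.9 and 60.8 CPM in RedOakFlame hearts, against 21.8, 27.7 and 38.1 CPM in saline hearts. All 6 PeatFlame hearts and 5 of 6 RedOakFlame hearts were above every saline heart. The log2 changes were 0.87 ± 0.15 in PeatFlame (adjusted p = 0.0329) and 0.67 ± 0.15 in RedOakFlame (adjusted p = 0.0063). RedOakSmolder hearts had 31.6, 40.6 and 54.3 CPM and PeatSmolder hearts 31.5, 39.4 and 44.6 CPM, with 4 of 6 of each above every saline heart. Their log2 changes of 0.58 ± 0.15 and 0.44 ± 0.15 were not called (adjusted p = 0.568 and 0.0949). All 4 comparisons share the 6 saline hearts.

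The PeatFlame call of Btg2 was lost without PeatFlame replicate 3, PeatFlame replicate 6, saline replicate 2 or saline replicate 5, with log2 changes of 0.80, 0.82, 0.82 and 0.84 and an adjusted p of 0.0968, 0.0582, 0.148 and 0.0549 in edgeR's quasi-likelihood test. Neither probe was called alone in PeatFlame (0.79 ± 0.14 and 1.12 ± 0.32), and both were in RedOakFlame (0.56 ± 0.14 and 1.03 ± 0.32). Fibroblast markers were called higher in RedOakFlame hearts in 5 of 6 and in PeatFlame hearts in 0 of 6, with summed levels of 1501 to 3139 CPM in RedOakFlame, 1119 to 2495 CPM in PeatFlame and 1018 to 1405 CPM in saline and with 0 markers at 0. Of 8 endothelial markers, 4 were called higher and 1 lower in RedOakFlame and 0 were called in PeatFlame, with sums of 532 to 709 CPM in RedOakFlame, 508 to 636 CPM in PeatFlame and 432 to 538 CPM in saline. Of 5 monocyte and macrophage markers tested, 2 were called higher in RedOakFlame (Csf1r and Cd68) and 0 in PeatFlame, and the sums over all 10 listed were 43.4 to 64 CPM in RedOakFlame, 26.6 to 46 CPM in PeatFlame and 24.6 to 41.5 CPM in saline, with 0, 1 and 2 markers at 0. Of 10 heart muscle markers, 1 was called lower in RedOakFlame (Myl2) and 0 in PeatFlame, with sums of 38558 to 42824 CPM in RedOakFlame, 38455 to 49221 CPM in PeatFlame and 45012 to 53529 CPM in saline. The 10 neutrophil markers summed to 16 to 33.1 CPM in PeatFlame, 12.3 to 18.9 CPM in RedOakFlame and 8.13 to 15.7 CPM in saline. In that order, 1, 1 and 3 of these markers were at 0 in every heart. For fibroblasts, macrophages and heart muscle, the sums of RedOakFlame and saline hearts did not overlap. For neutrophils, those of PeatFlame and saline hearts did not overlap. The part of these cells in the change of Btg2 was not tested.

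Cdkn1a had 12.6, 4.66, 27.3, 7.15, 12.1 and 8.03 CPM in PeatSmolder hearts, and 3.88 to 8.17 CPM with a median of 4.73 in saline hearts. Of the PeatSmolder hearts, 3 of 6 were above every saline heart and replicate 3 stood far above the others. The log2 change was 1.15 ± 0.30 (adjusted p = 0.0269), and without replicate 3 it was 0.73, with an adjusted p of 0.131 in the same test. The call was also lost without PeatSmolder replicate 1 or saline replicate 1, 4 or 6, at log2 changes of 1.13, 1.07, 1.14 and 1.08 and an adjusted p of 0.0515, 0.0722, 0.0552 and 0.052. Fibroblast markers were called higher in PeatSmolder hearts in 2 of 6 (1399 to 2628 CPM summed, against 1018 to 1405 CPM in saline). Endothelial markers were called higher in 2 of 8 (Kdr and Cdh5) and lower in 1 (Egfl7), with sums of 503 to 658 CPM in PeatSmolder and 432 to 538 CPM in saline. Of 5 macrophage markers tested 1 was higher (Csf1r). The sums over all 10 listed were 37.5 to 49.7 CPM in PeatSmolder and 24.6 to 41.5 CPM in saline, with 2 markers at 0 in each. Of 10 heart muscle markers 1 was lower (Myl2), with sums of 40208 to 45556 CPM in PeatSmolder and 45012 to 53529 CPM in saline. The part of these cells in the change of Cdkn1a was not tested. In the other smoke groups of heart the log2 changes of Cdkn1a were 0.25 to 0.27. Flaming against smoldering hearts gave 0 calls of 10, where 0.0358% of all genes were called. For this comparison 3 of the 10 had an unadjusted p under 0.05 in edgeR (Gadd45g, Btg2 and Cdkn1a) and DESeq2 called 0.

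**Figure D5:**
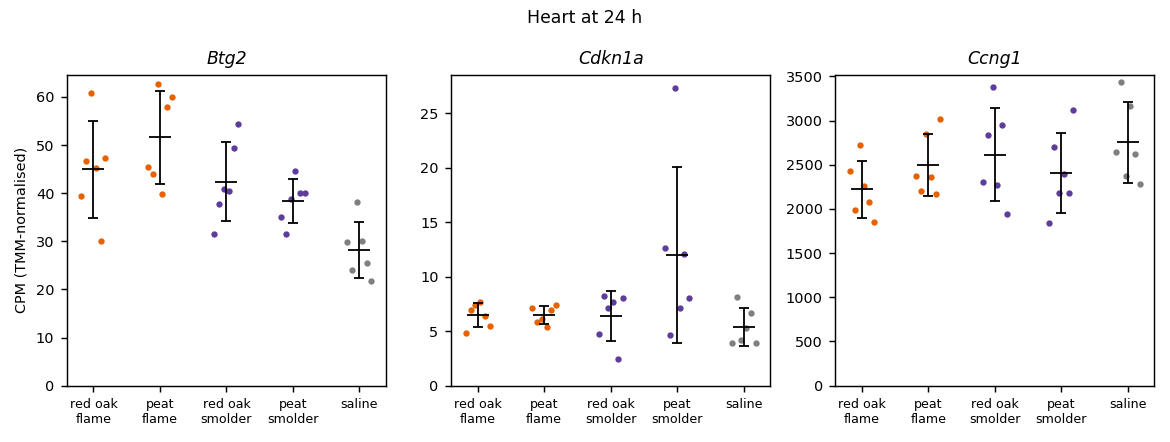
Levels in heart at 24 h, in CPM (y axis, from 0), of Btg2, Cdkn1a and Ccng1, with 6 animals per group, the mean as a bar and the SD as whiskers. The Btg2 mean is 51.6 CPM in PeatFlame and 28.2 CPM in saline, and 1 PeatSmolder heart stands at 27.3 CPM of Cdkn1a.

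Other growth arrest genes were called in the same hearts, beside shares over all genes of 5.33% called higher and 6.69% called lower in RedOakFlame and 2.39% called higher in PeatSmolder. Of 18 tested, 2 were called higher in RedOakFlame, Egr1 (1.37 ± 0.37, adjusted p = 0.015) and Klf4, a transcription factor of differentiation (0.73 ± 0.22, adjusted p = 0.0282), and 1 in PeatSmolder, again Klf4 (0.76 ± 0.22, adjusted p = 0.0419). Of 23 other p53 targets, 1 was called higher and 3 lower in RedOakFlame. Ppm1d, the phosphatase WIP1 that switches p53 signalling off, was higher by 0.40 ± 0.12, and Rps27l, Fas and Ei24 had log2 changes of -0.74 ± 0.18, -0.73 ± 0.23 and -0.31 ± 0.10. In PeatSmolder 1 was called, Apaf1, of the apoptosome, higher by 0.64 ± 0.18 (adjusted p = 0.034).

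Heart and lung differed in all 10 genes, beside a background in which 88.8% of all 12335 genes tested in the 30 animals with both organs were called, 40.9% higher and 47.8% lower in heart. Of the 10, 4 were higher and 6 lower in heart. All 30 hearts were on plate 2, as were 5 of 6 lungs in each group of these animals, and this fit had no plate term. Ccng1 stood at 3058 ± 549 CPM in heart and 137.04 ± 38.8 CPM in lung (SD, n = 30 animals, both organs normalised together), higher in heart in 30 of 30 animals, with a log2 change of 4.48 ± 0.12 (adjusted p = 1.94e-40). Gadd45a stood at 266 ± 56.7 CPM in heart and 47.7 ± 18.2 CPM in lung, also higher in 30 of 30 (2.48 ± 0.13). Aen (0.62 ± 0.08) and Phlda3 (0.44 ± 0.12) were higher in heart in 29 and 23 of 30 animals.

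Btg2 was at 50.2 ± 12.8 CPM in heart and 359 ± 385 CPM in lung, lower in heart in 30 of 30 animals (-2.72 ± 0.22). Gadd45b was at 35.2 ± 9.3 CPM in heart and 179 ± 57.4 CPM in lung, lower in 29 of 30 (-2.35 ± 0.15). Bbc3, Gadd45g, Cdkn1a and Mdm2 were lower in heart, with log2 changes of -2.08 ± 0.15, -1.82 ± 0.15, -1.02 ± 0.17 and -0.63 ± 0.11. The adjusted p of these 10 calls was at most 0.000618, that of Phlda3. Without the animals whose lung library had few detected genes, all 10 kept their direction and were called, with log2 changes of 4.42 for Ccng1 and -2.45 for Btg2. With only the animals whose lung was on plate 2, all 10 also kept their direction and were called.

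Probes of 1 gene did not always give the same difference between the organs. For Btg2, probe 65256 averaged 11 CPM in heart and 319 CPM in lung (-4.82 ± 0.32), and probe 29359 averaged 39.2 CPM in heart and 40.2 CPM in lung (-0.08 ± 0.11, adjusted p = 0.519). For Gadd45a, probes 72346 and 29109 were higher in heart (2.79 ± 0.20 and 2.64 ± 0.16) and probe 31917 was lower (-1.47 ± 0.22). The probe of Aen with the highest lung level had a log2 change of 0.06 ± 0.11 (adjusted p = 0.605) and probe 72984 of 2.46 ± 0.19. For Mdm2, probe 29942 was lower in heart (-0.93 ± 0.13) and probe 64372 higher (0.96 ± 0.23). The difference of these 4 genes between the organs thus depends on the probe.

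Over the 24 lung groups, the group means on the log2 CPM scale had a Pearson correlation of 0.82 for Cdkn1a and Gadd45g, 0.79 for Gadd45a and Phlda3, 0.72 for Gadd45a and Gadd45b and -0.81 for Btg2 and Phlda3. Outside the 10 genes, Gadd45b was most like Batf (0.97), Slfn5 (0.96) and Cd40 (0.96), and Cdkn1a like Nfil3 (0.91), Adm (0.90) and Pik3r5 (0.89). The genes most like Gadd45g were Nmi (0.92), Socs3 (0.91) and Zwint (0.91), those most like Aen were Txnrd1 (0.92), Ccl17 (0.88) and Slc26a4 (0.88), and those most like Btg2 were Necap2 (0.96), Tmem128 (0.96) and Tubb2b (0.95). These values describe 24 points that share plates, hold LPS groups far from the rest for the genes it raised, and include the libraries of few detected genes.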

How the data were processed

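Gene expression was measured in 170 libraries of mouse lung and heart. The labels' protocols name both the TempO-Seq platform, which counts ligated probes, and a 3′ mRNA kit, and the rows of the table are numbered probes. The authors deposited raw counts per probe, 30146 rows for 21450 symbols, of which 15160 have 1 row. Bowtie and DESeq2 stand in the submitters' processing notes, without versions or roles, and the genome build is not given in the sources used here. All columns of the table were matched to samples by title, and 0 were left unused.

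Counts were summed per symbol. Genes passing filterByExpr were fitted with edgeR 4.0.16 (R 4.3.3, limma 3.58.1, the data.table package 1.17.8) after TMM scaling: 14458 genes over 140 lung libraries with group and plate as terms, 11179 genes over 30 hearts with group, and 12335 genes over the 60 libraries of 30 animals with tissue and treatment. P-values come from glmQLFTest, adjusted by Benjamini-Hochberg over all genes tested, with a threshold of 0.05. CPM are TMM-scaled within lung, within heart, or over both where the organs are compared, and cannot be set against each other across these scalings. Heart and lung are paired by animal number, which the titles share: their deviations from the group means correlated at -0.22 to 0.24 (median 0.10, 30 pairs), and the fit with the animal as a block is an alternative. Each lung library has its own animal number. The closest 2 libraries of a group differ in 13635 genes, so none was taken for a repeat. The intervals of levels and fold changes rest on animals. Alternatives were DESeq2 (1.42.0), its size factors, no filter, no plate term, each probe alone, a covariate for the genes detected per library, each time alone, leaving out the libraries of few detected genes, leaving out each replicate and, chosen after seeing the data, leaving out the pine needles groups, lungs of 1 plate per time, and the animals with a sparse lung library. Heart against lung was also fitted on only the animals whose lung was on plate 2. Refits without 1 lung kept the dispersion trend of all lungs. All 10 genes are named where called, and of each other list up to 4 called genes with the smallest p. Likeness is the Pearson correlation of the 24 lung group means, 3 genes per gene. The 10 genes and the other lists were chosen with earlier results of these data known.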

Additional observations from a re-analysis of the deposited data

Results flagged for a closer look

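Of 290 sets of a gene and a group, 28 held a sample that stood far from the others by Dixon's test at the 95% level. For normally distributed values chance gives this in about 1 in 20 groups. The test was run on CPM without a log scale, so the 28 cannot be set against that rate. Btg2 was high at 1985 CPM in EucalyptusFlame replicate 5 (others 140.2 to 531), 910.3 CPM in PineFlame replicate 6 (157 to 278), 1789 CPM in PineSmolder replicate 4 (158 to 757) and 2701 CPM in RedOakFlame replicate 6 (191 to 849) in lung at 24 h, all of them libraries of few detected genes. In the same libraries Mdm2 was high at 84.3 CPM in EucalyptusFlame replicate 5, 67 CPM in PineFlame replicate 6 and 128.8 CPM in RedOakFlame replicate 6. Gadd45g was high at 139.5 CPM and Ccng1 low at 106.4 CPM in PineFlame replicate 6, Aen was high at 58.9 CPM in PineSmolder replicate 4, and Bbc3 was low at 3.12 CPM in EucalyptusFlame replicate 5.

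Elsewhere in lung at 24 h, Btg2 was at 562 CPM and Gadd45g at 140.3 CPM in PeatSmolder replicate 1, which was high for both. Gadd45a was high at 129.6 CPM and Phlda3 at 57.2 CPM in RedOakSmolder replicate 1, and Gadd45a also at 98.9 CPM in PineFlame replicate 2 and 99.6 CPM in PineSmolder replicate 6. Aen was high at 26.4 CPM in EucalyptusFlame replicate 1. In lung at 4 h, saline replicate 1 was high for Mdm2 (51.2 CPM), Btg2 (419 CPM) and Aen (35.9 CPM), and without it 1 single smoke call was made at that time. Also at 4 h, Cdkn1a was high at 51.9 CPM in PineNeedlesFlame replicate 5 (others 14.1 to 21.3), Mdm2 at 60.6 CPM in EucalyptusSmolder replicate 1, and Gadd45a at 114.96 CPM in EucalyptusSmolder replicate 6 and 152 CPM in PeatFlame replicate 3, while Ccng1 was low at 113.5 CPM in PeatFlame replicate 5. In heart, Cdkn1a was high at 27.3 CPM in PeatSmolder replicate 3 (others 4.66 to 12.6), whose removal ended the call, and Aen at 29.6 CPM in PeatSmolder replicate 5.

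In 4 of 150 pairs compared, every animal of a group moved one way from its saline mean and every animal of the other group the opposite way, and none of these differences was tested in this form. The share of such pairs over all genes was not counted. In PineNeedlesFlame lungs Cdkn1a was -16.4 CPM from the saline mean at 24 h and 9.98 CPM from it at 4 h, and Gadd45g -46.3 CPM at 24 h and 65.1 CPM at 4 h. Btg2 in RedOakSmolder was 14.1 CPM from the saline mean in heart and -156 CPM in lung at 24 h. Phlda3 after LPS was -7.01 CPM from it at 24 h and 13.5 CPM at 4 h, and the fitted difference between these LPS effects was -0.92 ± 0.47 on the log2 scale (edgeR adjusted p = 0.607).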

How the results depend on the processing

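Results reversed only with single probes: heart against lung for Gadd45a (-1.47, probe 31917), Mdm2 (0.96, probe 64372) and Aen (-0.21, probe 64198), and LPS at 24 h for Mdm2 (-0.11, probe 64372), which was not called. Counts of called genes that moved by over 1.5 times follow, as alternative against the reported count. For single smokes at 4 h, 1 with DESeq2, 1 with its size factors, 1 without the libraries of few detected genes, 2 with that time alone and 7 with a covariate for how many genes a library detected, against 0. For single smokes at 24 h, 1 with DESeq2, 1 with its size factors and 2 when the libraries of few detected genes were left out, against 0. For the mean of the smokes at 4 h, 1 with the covariate, against 0, and for LPS at 24 h, 5 with the covariate, against 3. For flaming against smoldering at 4 h, 2 without the libraries of few detected genes, 3 with the covariate and 2 with that time alone, against 1, and at 24 h 0 with that time alone, against 1. Without the pine needles groups, over both plates or on 1 plate per time, it was 0 at each time. For the difference among smokes, 1 in each of 5 alternatives at 4 h, against 0 (Gadd45g, adjusted p = 0.0363 with DESeq2 size factors, 0.00822 with DESeq2, 0.0234 without the libraries of few detected genes, 0.00705 with the covariate and 0.0119 with that time alone), and 0 with that time alone at 24 h, against 3. The cause of these shifts was not tested. With 1 replicate left out, counts were 4 to 5 for LPS at 4 h, 3 to 3 for LPS at 24 h, 0 to 1 for single smokes at 4 h (1 without saline replicate 1), 0 to 0 at 24 h, 0 to 1 for flaming against smoldering at each time in lung, and 2 to 4 for single smokes in heart. Leaving out smoke-exposed lungs and hearts, the pine needles groups or animals with a sparse lung library was chosen after seeing the data. With the replicate block for the animal, heart against lung kept 10 calls of 10, and the pairing changed no call. In all, 98 counts stayed within 1.5 times under the alternatives that leave out no single library, and 24 moved. The least abundant gene, Bbc3, had 1.03 to 3.99 CPM in heart, and its 95% interval for PeatFlame against saline reached from -0.89 to 0.37 on the log2 scale.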
